A study of Rattus norvegicus with 6 samples.

Results

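The cytosolic and mitochondrial chaperones are described here across 6 RNA sequencing libraries of rat nucleus pulposus cells, the cells of the soft core of the intervertebral disc. The genes were taken by symbol from a fixed list of 42 chaperones, co-chaperones and heat shock factors. Of these, 41 had a row in all 6 files and 39 reached the expression filter, a mean of at least 1 FPKM (a read density per length of transcript and per mapped fragment) over the 6 samples. They stand among 22573 gene symbols in the files, of which 10180 were tested. Hspa1b had no row under that symbol, Dnajb6 was listed at 0 in every library, and Hspa1a lay under the filter.

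The samples came from Sprague Dawley rats and gave 3 control libraries and 3 libraries from cells put under cyclic tensile strain. Strain was applied with a Flexcell tension device for 24 h, at a frequency of 0.2 Hz and an elongation of 18%. All 6 samples carry this same treatment text, so the controls were read as unstretched from their class label alone. No genotype, age, sex or passage is given, nor whether replicates came from different animals or dishes. The p-values therefore reflect the spread among these libraries alone, which may be technical. The series asks how such strain acts on genes of the circadian clock, and the comparison below sets strain against control for the chaperones.

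Chaperones bind unfolded stretches of proteins and help them to fold or pass them on for degradation. HSP70 proteins work in cycles of ATP hydrolysis that J-domain proteins start and nucleotide exchange factors end. HSP90 finishes the folding of kinases and steroid receptors together with its co-chaperones, small heat shock proteins hold unfolded proteins without ATP, and the ring-shaped chaperonins HSP60 (mitochondria) and TRiC (cytosol) enclose them. HSF1 switches on many of these genes when unfolded proteins accumulate. Disc cells live under mechanical load and osmotic pressure, and small heat shock proteins such as Hspb1 are known from the actin cytoskeleton of loaded cells.

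Summed FPKM was between 308780 and 347508 in the libraries, which does not give their depth, and 10052 to 10125 genes reached 1 FPKM. On the second principal component strain replicate 3 lay far from its group (17.5 against -9.70 and -10.8). The labelled tissue was only partly borne out by its markers. Pax1 and Foxf1 were expressed in both groups, whereas the notochord genes Shh and Noto were listed at 0, and control means were 0.0826 FPKM for T, 0.0845 FPKM for Krt18 and 0.0111 FPKM for Krt19. Of 12 nucleus pulposus and notochord markers with a row, 7 were tested. Of these, 6 (85.7%) were called higher under strain, beside 16.4% of all tested genes. These 6 were Lgals3, Pax1, Car3, Ncam1, Krt8 and Foxf1, while Cd24 had a negative log2 change (-0.27) and was not called. The 12 markers summed to 71.4 to 73.7 FPKM per control library and to 166 to 229 FPKM per strain library. Most of each sum was Lgals3 alone, whose mean was 42.4 FPKM (control) and 135 FPKM (strain). Of 8 macrophage markers 3 were tested. Cd68 and Adgre1 were lower, beside 19.0% of all tested genes, and Cd14 was not called. Cd68 averaged 1.53 FPKM (control) and 0.633 FPKM (strain), so it reached the filter only through the controls. The 8 markers summed to 17.4 to 23.6 FPKM in controls and 17.7 to 18.2 FPKM under strain. Most of each sum was Cd14 alone, whose mean was 14.5 FPKM (control) and 15.8 FPKM (strain). The leukocyte gene Ptprc was at or under 0.0228 FPKM in both means. Csf1r, Cd163, Aif1 and Mrc1 averaged at most 0.0767 FPKM in either group. Of 8 cartilage matrix markers 4 were tested. Col11a1, Sox9 and Hapln1 were higher, beside 16.4% of all tested genes, and Acan was not called. Hapln1 averaged 0.251 FPKM (control) and 1.89 FPKM (strain), so it reached the filter only through the strain libraries. The 8 markers summed to 89.5 to 141 FPKM per control library and to 223 to 271 FPKM per strain library. Most of each sum was Col11a1 alone, whose mean was 71.3 FPKM (control) and 198 FPKM (strain). The untested Col2a1 averaged 0.0423 FPKM (control) and 0.898 FPKM (strain). Endothelial markers summed to at most 0.596 FPKM, skeletal muscle ones to 1.68 to 4.50 FPKM, and blood ones were listed at 0. The part of these shifts in the chaperone results was not tested. In such bulk samples, fewer cells of a type and less RNA per cell cannot be told apart.

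Among the 39 tested chaperone genes, 13 fell and 4 rose under strain (limma, adjusted p under 0.05). Hspa4l, Hspb8, Hsp90aa1 and Chordc1 fell most, and Hspb6, Hspa2, Hspb1 and Hspe1 were the 4 that rose. The called share was 43.6%, against 35.4% of all tested genes. The share that fell was 33.3%, against 19.0% of all tested genes, and the share that rose was 10.3%, against 16.4%. This split depended on the scaling: with quantile or upper-quartile scaling 10 of the 39 fell and 6 rose. In 21 of the 39 (53.8%) the control and strain values did not overlap, against 51.9% of all tested genes, a share near that background. The median log2 change was -0.12, against -0.01 for all tested genes. It was -0.053 with quantile and -0.046 with upper-quartile scaling, against 0.034 and 0.053 for all tested genes. The chaperones together held 0.720% to 0.767% of summed FPKM in controls and 0.737% to 0.754% under strain, so their share of the library overlapped between the groups.

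The count of 17 depended on single libraries. It was 9 without control replicate 1, 10 without control replicate 3 and 11 without strain replicate 1. The called shares of the members were then 23.1%, 25.6% and 28.2%, below the 23.3%, 27.6% and 31.5% of all tested genes in those fits. With all libraries the members' share was above that of all genes. It stayed above without control replicate 2 (35.9% against 29.5%), strain replicate 2 (30.8% against 28.5%) or strain replicate 3 (46.2% against 35.1%). Of the 17 calls, 7 held in each of 13 alternative analyses: Hspa4, Hsph1, Hspb6, Hspb8, Chordc1, Ptges3 and Hsf2. Hspa4l held in the 12 that tested it, since its mean of 4.65 FPKM lay under the alternative filter at 5 FPKM. The other 9 lost the call in at least 1 of them, always in the same direction.

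**Figure D1:**
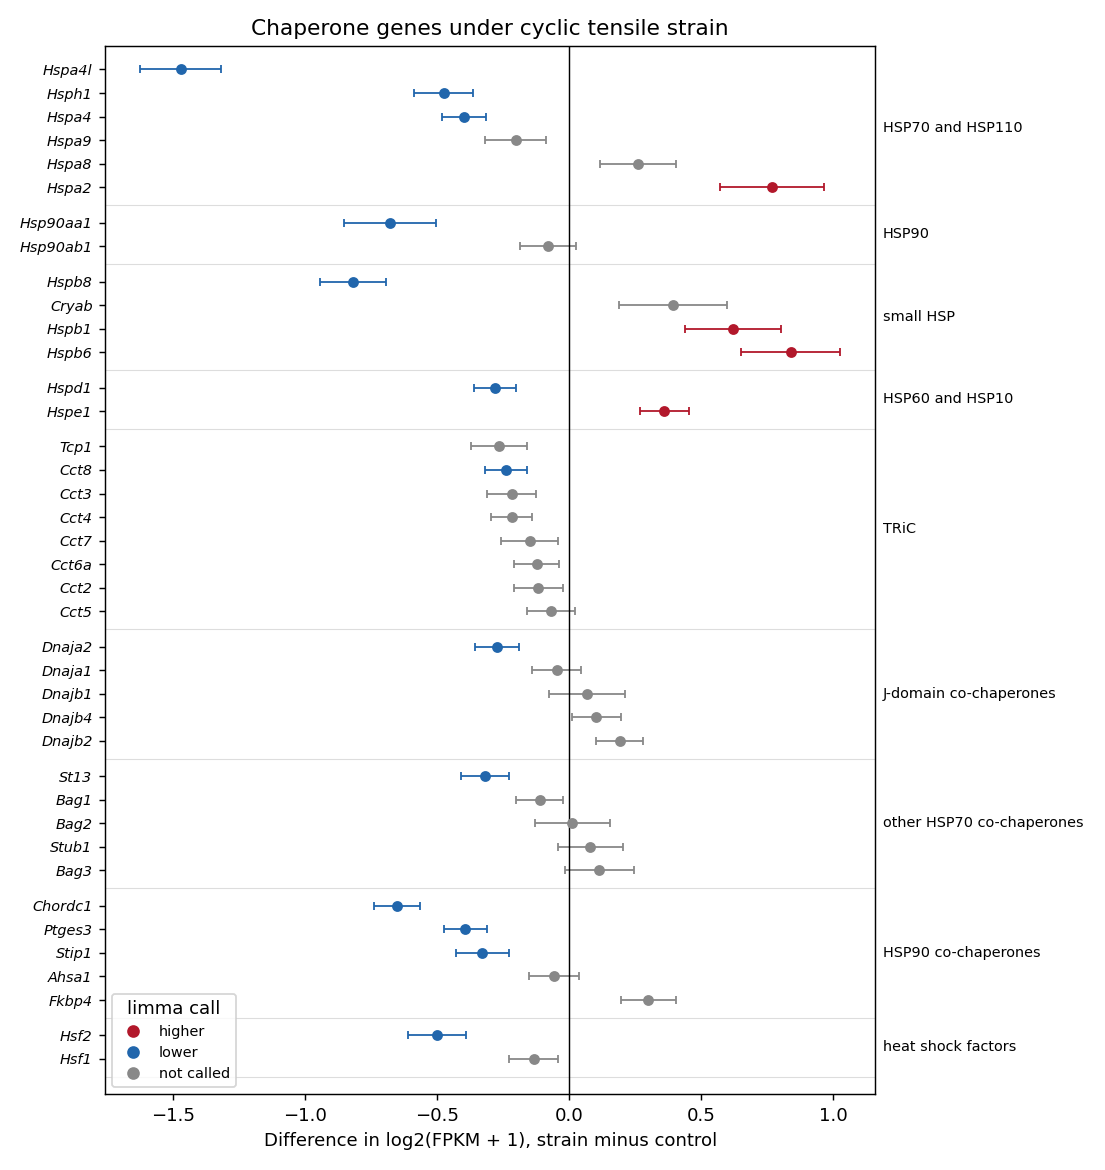
Difference in log2(FPKM + 1) between strain and control for the 39 tested chaperone genes, grouped by role, with points at the limma estimate, bars of 1 standard error and colour for the call. The 13 genes called lower include Hspa4l at -1.47, the 4 called higher reach 0.84 for Hspb6, and all 8 TRiC subunits lie below 0.

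Of the HSP70 family 6 genes were tested, of which 3 fell and 1 rose, beside 19.0% and 16.4% of all tested genes. Hspa8, the constitutive cytosolic HSP70 and the most abundant chaperone of the family, was not called, while the 3 genes of the HSP110 branch, which act as nucleotide exchange factors for HSP70, all fell. Hspa8 stood at 258, 207 and 304 FPKM in controls and at 304, 283 and 326 FPKM under strain (log2 change 0.26 ± 0.14 SE, limma adjusted p = 0.187). Control replicate 3 lay as high as the strain libraries, so the groups overlapped.

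Hspa4l, an HSP110 protein, was at 7.26, 7.71 and 6.85 FPKM in controls and 2.73, 1.95 and 1.41 FPKM under strain. Every strain library was under every control, and the mean fell 3.58-fold (log2 change -1.47 ± 0.15 SE, limma adjusted p = 0.000197). Hspa4, its closest relative, went from 79.6, 81.1 and 85.3 FPKM to 65.8, 60.4 and 59.8 FPKM, a 1.32-fold fall (adjusted p = 0.00668). Hsph1, the HSP110 gene of the heat shock response, was at 82.4, 77.6 and 89.2 FPKM in controls and 69.1, 54.2 and 55.9 FPKM under strain, a 1.39-fold fall (adjusted p = 0.0112). The ratio of Hsph1 to Hspa4 was 0.957 to 1.05 in controls and 0.897 to 1.05 under strain.

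Hspa2, an HSP70 best known from the testis, was the 1 gene of the family tested at the filter that rose. It was at 2.03, 1.85 and 3.95 FPKM in controls and 4.47, 4.98 and 5.45 FPKM under strain (1.91-fold, limma adjusted p = 0.0153). Control replicate 3 was well above the other controls and just under strain replicate 1. The call was lost without control replicate 1 (adjusted p = 0.0619), control replicate 2 (0.0510) or strain replicate 3 (0.0581). Hspa9, the HSP70 of the mitochondrial matrix, averaged 112 ± 14.6 FPKM in the control and 96.8 ± 6.66 FPKM in the strain libraries (SD, n = 3), which overlapped without a call.

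Hspa1a, the stress-inducible HSP70 whose transcript is nearly absent from unstressed cells, was at 0.433, 0.388 and 0.493 FPKM in controls. Under strain it was at 0.999, 0.656 and 1.18 FPKM, with every strain library above every control. It was not tested at the filter; in the fit without a filter the log2 change was 0.43 ± 0.11 SE (limma adjusted p = 0.0361). Its near-identical copy Hspa1b had no row, and how the authors assigned reads shared by the copies is not given in the sources used here, so this level is uncertain. Even the highest Hspa1a value was far under Hspa8: the ratio of the 2 genes was 0.00162 to 0.00188 in controls and 0.00232 to 0.00363 under strain.

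The HSP90 genes differed in their listed level and in their change. Hsp90ab1, the constitutive cytosolic HSP90, was among the most abundant chaperones at 304, 267 and 271 FPKM in controls and 252, 254 and 292 FPKM under strain. The groups overlapped and it was not called (log2 change -0.08 ± 0.11 SE, limma adjusted p = 0.590). Hsp90aa1, the inducible HSP90, was at 9.86, 5.89 and 5.90 FPKM in controls and 4.45, 3.86 and 3.77 FPKM under strain. Its strain values lay under all controls, and control replicate 1 was well above the other controls. The mean fell 1.79-fold (limma adjusted p = 0.0161), and the call was lost without strain replicate 3 (adjusted p = 0.0535). The listed level of Hsp90aa1 was far under that of Hsp90ab1, and neither the annotation nor the handling of reads shared by related genes is given in the sources used here, so this level is uncertain.

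**Figure D2:**
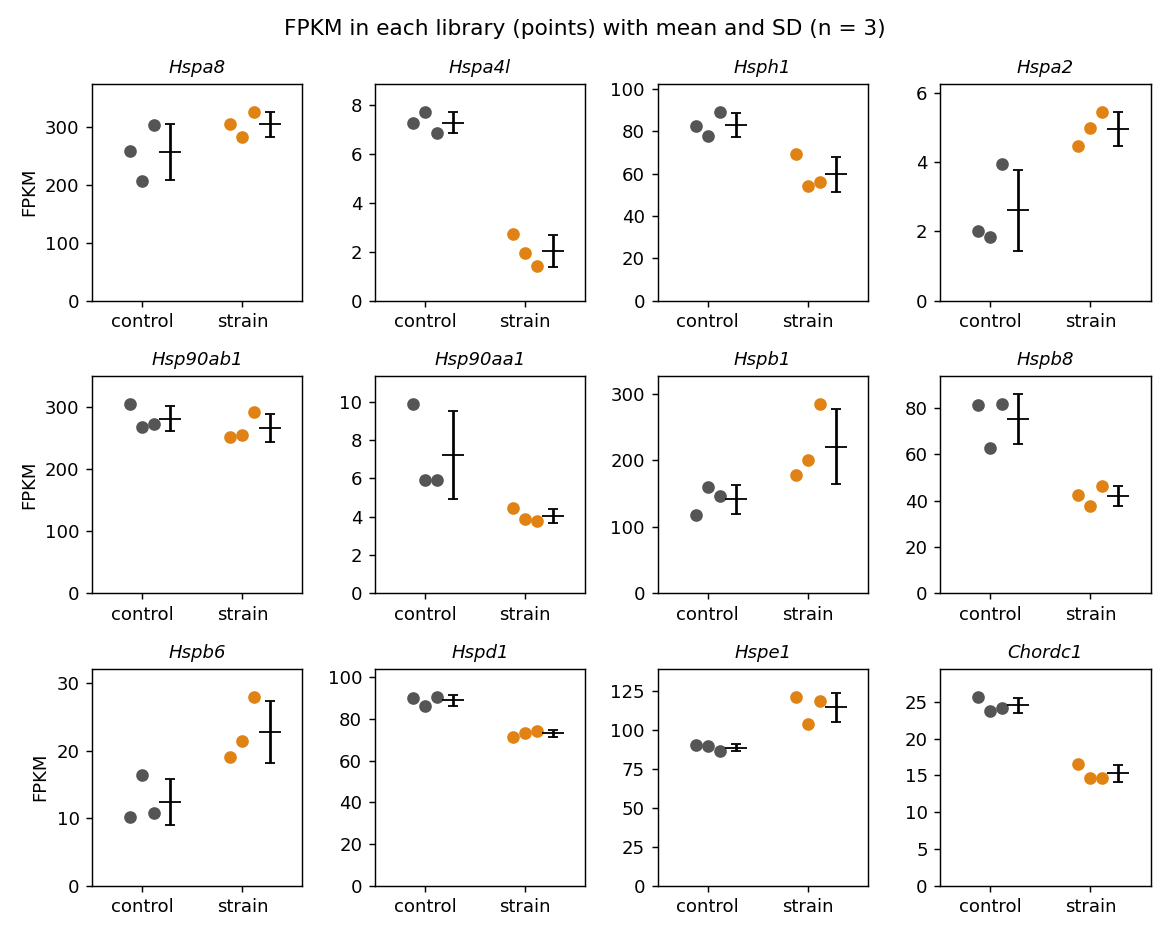
FPKM of 12 chaperone genes in each library, as points, with the group mean and SD (n = 3) beside them, on axes that start at 0. Hspa8 and Hsp90ab1 overlap between control and strain, Hspa4l, Hspb8 and Chordc1 are lower in every strain library, and Hspb1, Hspb6 and Hspe1 are higher in every strain library.

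The small heat shock proteins moved in opposite directions. Hspb1 and Hspb6 rose, Hspb8 fell, and Cryab, the alpha-B crystallin gene, was not called. Of all tested genes 16.4% rose and 19.0% fell. Hspb1, which encodes HSP27, was at 117, 160 and 147 FPKM in controls and at 178, 199 and 284 FPKM under strain. The strain libraries were all higher, with strain replicate 3 well above the other strain libraries. The rise was 1.56-fold (limma adjusted p = 0.0274), and the call was lost without control replicate 1 (adjusted p = 0.105), without control replicate 3 (0.0568) or with no filter on low values (0.0645).

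Hspb6, which encodes the muscle-associated HSP20, was at 10.2, 16.4 and 10.8 FPKM in controls and 19.1, 21.5 and 27.99 FPKM under strain. All strain values exceeded the controls, and the rise was 1.84-fold (limma adjusted p = 0.00872). Hspb8, which works with Bag3 in the clearance of damaged proteins by autophagy, fell 1.79-fold. It was at 81.3, 62.8 and 81.6 FPKM in controls and 42.3, 37.6 and 46.2 FPKM under strain (adjusted p = 0.00136). Its partner Bag3 was at 37.0, 30.5 and 42.2 FPKM in controls and 36.6, 37.2 and 44.8 FPKM under strain, overlapping groups with no call. Cryab stood at 26.2, 44.4 and 38.2 FPKM in controls and 42.1, 40.7 and 59.9 FPKM under strain (log2 change 0.39 ± 0.21 SE, adjusted p = 0.168). Control replicate 2 was above 2 of the strain libraries for Cryab, and strain replicate 3 was highest for both Hspb1 and Cryab. The ratio of Hspb1 to Cryab was 3.60 to 4.48 in controls and 4.22 to 4.90 under strain (exact two-sided permutation p = 0.200, adjusted p = 0.280 over 7 ratios).

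The genes of the mitochondrial chaperonin moved in opposite directions. Hspd1 encodes HSP60, the barrel that folds proteins in the mitochondrial matrix, and Hspe1 encodes HSP10, its lid. The genes lie head to head and share the stretch between their start sites, so the 289 bases of GRCr8 (RefSeq) between them are shown in the direction of Hspe1, chr9:64084038-64084326, plus strand. Capitals mark overlapping heat shock elements, alternating GAA and TTC units that HSF1 is known to bind.
Hspd1 and Hspe1: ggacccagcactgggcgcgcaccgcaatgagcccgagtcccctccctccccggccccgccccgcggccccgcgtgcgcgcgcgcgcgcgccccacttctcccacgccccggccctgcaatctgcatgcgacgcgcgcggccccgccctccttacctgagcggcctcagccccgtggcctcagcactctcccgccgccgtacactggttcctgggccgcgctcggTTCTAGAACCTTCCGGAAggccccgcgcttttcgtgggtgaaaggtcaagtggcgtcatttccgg
The element begins 65 bases before the Hspe1 start site and 242 bases before that of Hspd1.

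In controls both genes had nearly the same level. Hspd1 was at 90.2, 86.1 and 90.6 FPKM and Hspe1 at 90.4, 89.5 and 86.2 FPKM, so the ratio of Hspe1 to Hspd1 was 1.002, 1.04 and 0.951. Under strain Hspd1 was at 71.4, 73.5 and 74.3 FPKM, below all controls, and Hspe1 at 121, 104 and 118 FPKM, above all controls. The ratio was then 1.70, 1.41 and 1.59, which is 1.57-fold higher (log2 difference 0.65; exact two-sided permutation p = 0.1, the smallest that 3 against 3 libraries can give, adjusted p = 0.233 over 7 ratios). A ratio within a library does not change with the scaling of that library.

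Gene by gene, Hspd1 fell 1.22-fold (limma adjusted p = 0.0242) and Hspe1 rose 1.29-fold (adjusted p = 0.0154). The Hspd1 call was lost on leaving out control replicate 1 or 3 (adjusted p = 0.0911 and 0.0864) or strain replicate 1 or 2 (0.0819 and 0.0649), and with quantile (0.0686) or upper-quartile scaling (0.0587). That of Hspe1 was lost without control replicate 1 (0.0508), control replicate 3 (0.0606) or strain replicate 1 (0.0582).

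**Figure D3:**
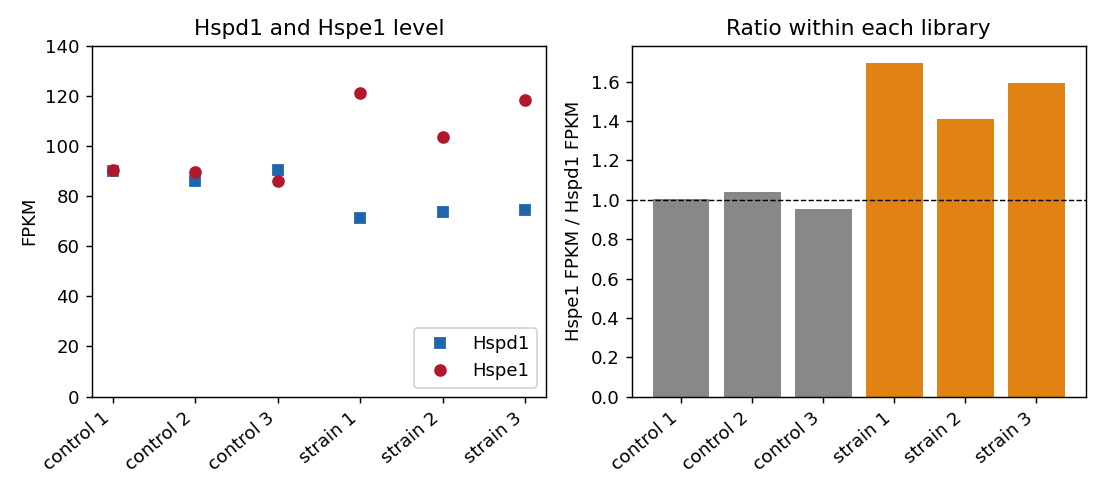
FPKM of Hspd1 and Hspe1 in each library (left) and the ratio of Hspe1 to Hspd1 within each library (right; bars start at 0, the dashed line marks equal levels). The control ratios lie between 0.951 and 1.04 and the strain ratios between 1.41 and 1.70.

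TRiC, the cytosolic chaperonin that folds actin and tubulin, is built from 8 different subunits, all of them tested here. Only Cct8 fell past the threshold, a called share of 12.5% beside 35.4% of all tested genes, while 7 were not called. Cct8 was at 70.5, 66.6 and 67.8 FPKM in controls and 56.9, 57.0 and 59.5 FPKM under strain (1.18-fold lower, limma adjusted p = 0.0437). Its call was lost on leaving out control replicate 1, 2 or 3 (adjusted p = 0.153, 0.0783 and 0.110) or strain replicate 1 or 2 (0.123 and 0.118), and with quantile (0.0815) or upper-quartile scaling (0.105), and without trend and robust moderation (0.0550).

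The log2 changes of the 8 subunits were all negative but small, from -0.26 for Tcp1 to -0.07 for Cct5. Of all tested genes 51.6% had a negative change. With quantile or upper-quartile scaling 7 of 8 were negative and Cct5 was at 0.02 or 0.01. The 8 subunits summed to 606, 563 and 601 FPKM in controls and 511, 499.6 and 558 FPKM under strain, without overlap. Tcp1, the founding subunit, was at 69.3, 57.8 and 71.1 FPKM in controls and 52.4, 52.1 and 59.7 FPKM under strain (limma adjusted p = 0.0840), with control replicate 2 inside the strain range. Cct4, the most abundant in controls, was at 104, 101 and 99.7 FPKM there and at 86.9, 86.6 and 88.0 FPKM under strain, without overlap (adjusted p = 0.0591). Without strain replicate 3 the calls of Tcp1 (0.0411), Cct3 (0.0214) and Cct4 (0.0275) were made, and without control replicate 2 that of Tcp1 (0.0379). The subunits, which assemble in equal number, spanned 47.2 to 102 FPKM in control means and 43.3 to 88.5 FPKM in strain means, with Cct6a lowest in both.

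J-domain proteins hand unfolded proteins to HSP70 and start its ATPase. Of 6 such genes 5 were tested, 1 fell and 0 rose, beside 19.0% and 16.4% of all tested genes. Dnaja2 was at 53.5, 49.5 and 52.0 FPKM in controls and 42.9, 40.4 and 44.5 FPKM under strain (1.21-fold lower, limma adjusted p = 0.0313), without overlap. The call was lost on leaving out control replicate 1, 2 or 3 (adjusted p = 0.119, 0.0508 and 0.0928) or strain replicate 1 or 2 (0.0758 and 0.109), and with quantile (0.0572) or upper-quartile scaling (0.0639). Dnajb1, the HSP40 gene that HSF1 is known to induce strongly, was at 15.1, 12.4 and 18.6 FPKM in controls and 16.4, 14.0 and 17.6 FPKM under strain, with overlapping groups and no call (adjusted p = 0.746). Dnaja1, Dnajb2 and Dnajb4 were not called either. Dnajb2, a neuronal J-domain protein, had strain values above all controls (23.4 to 23.7 against 24.9 to 29.6 FPKM; adjusted p = 0.124). It was called higher with quantile (0.0337) or upper-quartile scaling (0.0233).

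Of the other HSP70 co-chaperones, 1 of 5 fell, beside 19.0% of all tested genes. St13, which encodes the HSP70-interacting protein Hip, was at 60.1, 53.6 and 59.8 FPKM in controls and 46.2, 43.2 and 49.2 FPKM under strain (1.25-fold lower, limma adjusted p = 0.0249). All strain values lay under the controls. The call was lost on leaving out control replicate 1 or 3 (adjusted p = 0.0974 and 0.0866) or strain replicate 1 or 2 (0.0620 and 0.0888). The nucleotide exchange factors Bag1 (36.5 ± 1.12 and 33.7 ± 2.74 FPKM; SD, n = 3) and Bag2 (15.6 ± 0.568 and 16.0 ± 3.50 FPKM) were not called. Stub1, the ubiquitin ligase CHIP that marks HSP70 clients for degradation, averaged 51.7 ± 2.15 FPKM in the control and 55.3 ± 9.79 FPKM in the strain libraries, without a call.

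HSP90 co-chaperones fell in 3 of 5 cases, beside 19.0% of all tested genes. Chordc1, a co-chaperone that binds HSP90, was at 25.7, 23.8 and 24.2 FPKM in controls and 16.6, 14.6 and 14.6 FPKM under strain (1.61-fold lower, limma adjusted p = 0.000736). Ptges3, the p23 co-chaperone that holds HSP90 closed on its client, was at 91.5, 83.1 and 89.3 FPKM in controls and 67.9, 66.3 and 66.1 FPKM under strain (1.32-fold lower, adjusted p = 0.00635). Stip1, the HOP adaptor that passes clients from HSP70 to HSP90, was at 56.2, 52.0 and 51.9 FPKM in controls and 42.4, 37.6 and 47.4 FPKM under strain (1.26-fold lower, adjusted p = 0.0331). None of these 3 genes overlapped between the groups, which also held for 51.9% of all tested genes.

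The Stip1 call was lost on leaving out control replicate 1, 2 or 3 (adjusted p = 0.121, 0.0663 and 0.0709) or strain replicate 1 or 2 (0.0736 and 0.114), and without a filter (0.0555). Ahsa1, which speeds the HSP90 ATPase, averaged 37.0 ± 1.1 FPKM in the control and 35.6 ± 3.62 FPKM in the strain libraries, without a call. Fkbp4, the immunophilin FKBP52 of steroid receptor complexes, went the other way. It was at 16.3, 13.6 and 15.7 FPKM in controls and 17.4, 18.5 and 21.0 FPKM under strain, without overlap, and just missed the threshold (limma adjusted p = 0.0528). With quantile or upper-quartile scaling it was called higher (0.0174 and 0.0170).

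The heat shock factors were both of moderate level. Hsf1, the main activator of the heat shock response, was at 7.65, 7.80 and 7.84 FPKM in controls and 6.66, 6.64 and 7.70 FPKM under strain (log2 change -0.13 ± 0.09 SE, limma adjusted p = 0.296). Strain replicate 3 lay within the control range. Hsf2, which forms complexes with HSF1, fell 1.49-fold, from 7.43, 8.35 and 8.38 FPKM to 5.91, 5.72 and 4.64 FPKM (adjusted p = 0.00787), with every strain library under every control.

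The promoters of the chaperones were searched for the 2-unit heat shock elements GAANNTTC and TTCNNGAA, each of which reads the same on both strands, and for 3 alternating units in either phase, which contain both forms. The windows ran from 250 bases before to 50 bases after the RefSeq start site in GRCr8, and 35 of the 42 genes had one. Those without were Hspa1b, St13, Dnaja2, Dnajb4, Hsf1, Cryab and Hsp90aa1. A 2-unit element was present in 20 of the 35 windows (57.1%), against 15.9% of all 33469 RefSeq windows. These were not limited to genes tested or expressed here. A 3-unit element was present in 7 (20.0%), against 0.798% of all windows: Hspa8, Hsph1, Hspd1, Hspe1, Chordc1, Dnaja1 and Cct4. Hspd1 and Hspe1 count the same element.

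Genes with a 3-unit element took every course under strain. Hsph1, Chordc1 and Hspd1 fell, Hspe1 rose, and Hspa8, Dnaja1 and Cct4 were not called. Stretches that hold an element are shown for the most abundant HSP70 and for the 2 genes with such an element that fell in each analysis, 5′ to 3′ along each gene, with 2-unit or longer elements in capitals. They are chr8:50080434-50080493 (Hspa8), chr12:10427248-10427367 (Hsph1) and chr8:23650831-23650853 (Chordc1, the element alone, which lies 11 to 33 bases into the transcript), all on the plus strand of GRCr8. The Hspa8 window held another 3-unit element, 213 to 201 bases before the start, which is not shown.
Hspa8: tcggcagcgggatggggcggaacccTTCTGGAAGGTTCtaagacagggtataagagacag
Hsph1: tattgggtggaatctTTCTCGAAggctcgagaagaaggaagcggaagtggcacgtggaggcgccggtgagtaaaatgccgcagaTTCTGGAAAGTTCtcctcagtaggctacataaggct
Chordc1: GAACGTTCGGGAAGATTCCTGAA

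Among the tested members with a window, 19 held a 2-unit element, of which 4 rose, 6 fell and 9 were not called. Of the 14 without one, 0 rose, 4 fell and 10 were not called. Of all tested genes 16.4% rose and 19.0% fell. Whether the course differed with the element was not tested. The small heat shock genes that moved in opposite directions held 2-unit elements and no 3-unit one. They are shown on the same build at chr12:26432382-26432441 (Hspb1, minus strand), chr1:94934212-94934271 (Hspb6, plus strand) and chr12:45837248-45837307 (Hspb8, plus strand), with the elements in these stretches in capitals. Hspb6 held another 2-unit element, 239 to 232 bases before the start, which is not shown.
Hspb1, higher under strain: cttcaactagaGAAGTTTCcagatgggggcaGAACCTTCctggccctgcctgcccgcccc
Hspb6, higher under strain: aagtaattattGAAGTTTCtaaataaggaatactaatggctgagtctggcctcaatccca
Hspb8, lower under strain: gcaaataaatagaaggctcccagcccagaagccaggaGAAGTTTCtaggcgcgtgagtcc
All 3 windows hold GAAGTTTC, as do those of Bag3 and Hspa9, which were not called. Hspb1 and Hspb6 each held another 2-unit element and Hspb8 did not. Whether these elements bear on the course of the genes was not tested.

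The wider chaperone network, 87 further genes listed by function, had 22 calls among 75 tested genes (29.3%, beside 35.4% of all tested genes), 7 higher and 15 lower. The count was 14 without control replicate 1 (18.7%, beside 23.3% of all tested genes in that fit). Without control replicate 3 it was 13 (17.3%, beside 27.6%). Genes known to respond to HSF1 or to regulate heat shock factors held the largest changes, with 6 falls (46.2%) and 2 rises (15.4%) among 13, beside 19.0% and 16.4% of all tested genes. Many of them also respond to other stress pathways.

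Zfand2a, an arsenite- and heat-inducible proteasome-associated gene, was at 46.4, 29.6 and 46.5 FPKM in controls and 13.8, 9.92 and 11.2 FPKM under strain (3.50-fold lower, limma adjusted p = 0.000219). Ier5, an early-response gene that acts on HSF1, fell 2.11-fold from 51.7 ± 5.90 to 24.5 ± 1.99 FPKM (SD, n = 3). Ppp1r15a, which encodes the stress-induced phosphatase subunit GADD34, was at 129, 132 and 72.6 FPKM in controls and 39.5, 30.3 and 35.1 FPKM under strain, with control replicate 3 the lowest control. Serpinh1, the collagen chaperone HSP47 of the endoplasmic reticulum, was the largest rise, from 399, 482 and 420 FPKM to 713, 813 and 986 FPKM (1.93-fold, adjusted p = 0.00124). These 4 calls held in each of the 13 alternatives.

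HSP70 partners outside the member list had 5 falls (26.3%) and 0 rises among 19 tested, beside 19.0% and 16.4% of all tested genes. The ribosome-related J-domain genes Dnajc21 and Dnajc2 fell 1.72-fold and 1.36-fold. Dnajc13, an endosomal J-domain protein, fell 1.53-fold to 7.41 ± 1.39 FPKM. Each of these 3 was called in all 13 alternatives.

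Mitochondrial chaperones and proteases beyond Hspa9, Hspd1 and Hspe1 had 1 fall and 2 rises among 17 tested, a called share of 17.6% beside 35.4% of all tested genes. Grpel2, a nucleotide exchange factor of mitochondrial HSP70, went from 9.93, 10.4 and 9.75 FPKM to 6.33, 4.997 and 6.199 FPKM (1.72-fold lower, limma adjusted p = 0.00128), without overlap. Its paralogue Grpel1 was at 14.1 ± 0.561 and 15.6 ± 2.54 FPKM and was not called. Trap1, the mitochondrial HSP90, rose 1.46-fold to 16.6 ± 3.99 FPKM, with strain replicate 3 (21.2 FPKM) far above the others (14.4 and 14.2 FPKM). The call of Trap1 was lost without control replicate 1 (adjusted p = 0.0650), 2 (0.0805) or 3 (0.0763) and without a filter (0.0646). Dnajc30, a J-domain protein of mitochondria, rose 1.56-fold to 10.01 ± 1.77 FPKM, a call lost without control replicate 1 (0.0592) or 3 (0.0505).

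Further HSP90 co-chaperones had 2 falls and 1 rise among 15, and prefoldin and other TRiC partners 1 of each among 9, called shares of 20.0% and 22.2% beside 35.4% of all tested genes. Ppid, the cyclophilin 40 of steroid receptor complexes, fell 1.29-fold to 35.1 ± 1.65 FPKM (limma adjusted p = 0.0113; 0.0505 without control replicate 3). Ppp5c (1.31-fold lower), Cacybp (1.29-fold higher), the prefoldin subunit Pfdn1 (1.25-fold higher) and Txndc9 (1.24-fold lower) lost their calls in 4 to 9 of the 13 alternatives. Of the further small heat shock genes 2 were tested, and Hspb7, a muscle-enriched member, rose 1.85-fold to 4.50 ± 1.05 FPKM (adjusted p = 0.0174). That call was lost without control replicate 1 (0.0677), control replicate 3 (0.0509) or strain replicate 3 (0.0536).

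**Figure D4:**
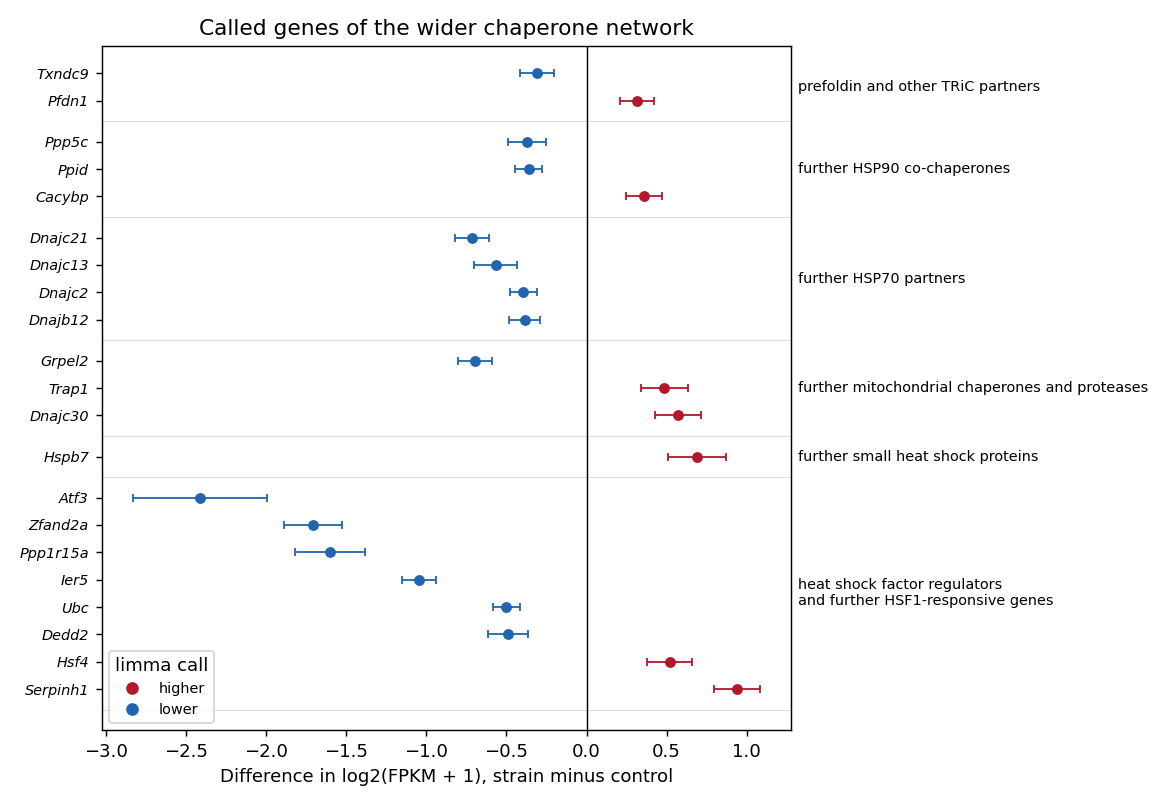
Difference in log2(FPKM + 1) between strain and control for 21 of the 22 called genes of the wider chaperone network, with points at the limma estimate and bars of 1 standard error. Those called lower reach -2.41 for Atf3, whose control values were uneven (14.0, 13.8 and 4.04 FPKM), and the 7 called higher reach 0.94 for Serpinh1.

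Pairs of related chaperones were also compared as ratios within each library. Besides Hspe1 to Hspd1, the inducible to constitutive pairs of HSP90 and of HSP70 moved in opposite directions. The ratio of Hsp90aa1 to Hsp90ab1 was 0.0325, 0.0221 and 0.0217 in controls and 0.0177, 0.0152 and 0.0129 under strain, all lower; it carries the uncertain level of Hsp90aa1, as the Hspa1a ratio does that of Hspa1a. That of Hspa1a to Hspa8 was higher in every strain library, by 0.81 on the log2 scale. Both had an exact two-sided permutation p = 0.1, the smallest possible here, and adjusted p = 0.233 over 7 ratios. Dnajb1 to Dnaja1 (0.180 to 0.234 in controls, 0.203 to 0.241 under strain) and Bag3 to Bag1 (0.864 to 1.16 and 1.11 to 1.22) overlapped between the groups. So did Hsph1 to Hspa4 and Hspb1 to Cryab, given above.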

How the data were processed

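The authors deposited 1 file per sample with 1 value per gene symbol, taken here as FPKM from the values and the tools named. Per the submitters' processing notes these were HISAT2 2.0.4, cutadapt 1.9.3, Cufflinks, Cuffdiff 2.2.1 and DESeq. Their roles, the annotation and any library scaling are not given in the sources used here, and the only build named is hg19, a human one, though the symbols are rat. FPKM keeps no read totals, so depth is unknown and no counting interval is given. Strand and the treatment of reads shared by paralogs are not given either.

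Left out were 27 of 22601 rows whose symbol had become a date, and 1 row broken in 1 file. Genes averaging 1 FPKM or more were tested on log2(FPKM + 1) with limma 3.58.1 (trend, robust; R 4.3.3), two-sided, adjusted p (Benjamini-Hochberg) under 0.05 over all 10180 genes; the script was tested on simulated data. Log2 changes are on that scale, which understates low genes; folds are ratios of group means, left out where a mean is under 1. Ratios were tested by exact permutation. The 13 alternatives varied pseudocount, filter, scaling, moderation, replicate block and libraries. Values are given for called members and for a reference gene of each role, and of each further list the 4 called genes with the smallest p; 1 of these is counted but not reported here. Atf3, called in a further list but outside that rule, the uncalled Grpel1, and Dnajb2, Fkbp4, Cct4 and other uncalled members were chosen after their values were seen. Members and lists were chosen with earlier results of these data known. Promoters are RefSeq's (GRCr8), matched by symbol. Protein sequences were not used here.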

Additional observations from a re-analysis of the deposited data

How the results depend on the processing

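Of the 39 tested chaperone genes 7 changed sign in at least 1 of 13 alternatives, and 0 of these were called. With quantile normalization the log2 changes turned to 0.024 for Cct5, 0.034 for Dnaja1 and 0.00048 for Ahsa1, and with upper-quartile scaling to 0.0083, 0.031 and 0.019. Without control replicate 2 they were -0.066 for Dnajb1 and -0.0063 for Bag3. Across left-out libraries Ahsa1 was at -0.13 to 0.0022, Bag2 at -0.13 to 0.17, Dnaja1 at -0.097 to 0.0091, Dnajb1 at -0.066 to 0.20, Bag3 at -0.0063 to 0.22 and Stub1 at -0.058 to 0.16. Leaving out 1 library gave 2375 to 3576 called genes (1047 to 1528 higher), 9 to 18 called members (1 to 4 higher, 8 to 15 lower) and 13 to 21 called network genes (2 to 7 higher, 11 to 16 lower). With a filter at 5 FPKM 1071 genes were called higher. Network genes called higher numbered 12 with quantile normalization and 12 with upper-quartile scaling. With either of these 6 members were called higher and 10 lower, against 4 and 13 in the main fit. Total counts of called genes and of called members stayed within 1.5 times under the other settings. The cause of these shifts was not tested.

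Replicate numbers are shared by the groups, but same-numbered libraries did not deviate together (r across genes = 0.03, 0.11 and -0.12 for numbers 1, 2 and 3), so they were not treated as pairs. With the replicate block 3116 genes and 13 members were called, and Hspd1, Cct8, Dnaja2 and Stip1 lost their calls. No label gives a batch, and library depth is unknown, so the precision of low values such as Hspa1a cannot be stated.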
